A study of Homo sapiens with 6 samples.

Results

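APOBEC3B, APOBEC3C, APOBEC3D, APOBEC3F and APOBEC3G are cytidine deaminase genes that lie side by side on chromosome 22. All 5 were found by their symbol among the 29845 genes of the count table, each with 1 row. RNA was measured in A549 cells, an established cell line derived from a human lung carcinoma of epithelial origin. The cells were transfected with a plasmid that carried FLAG-tagged TFAM, a mitochondrial DNA-binding protein (TFAM-OE group, 3 libraries), or with the same plasmid without the insert (control group, 3 libraries), and were harvested after 48 h. Both groups were exposed to plasmid DNA and to the transfection reagent, and no untransfected cells are described among the libraries used here. The study's methods call the 3 libraries of a group biological replicates, and the p-values measure the spread between these libraries.

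APOBEC3 enzymes convert cytidine to uridine in exposed strands of DNA. The family protects primate cells against retroviruses and retrotransposons, because uracil in newly made viral DNA becomes a mutation or leads to its breakdown. APOBEC3D, APOBEC3F and APOBEC3G act in the cytoplasm and are packaged into virus particles unless the HIV protein Vif sends them to degradation. APOBEC3B is located in the nucleus and is known as a source of mutations in tumours. Some members are induced by interferon in blood cells and hepatocytes, whereas APOBEC3B also follows the cell cycle. In these A549 libraries APOBEC3C and APOBEC3B were well expressed, APOBEC3F was low, and APOBEC3D and APOBEC3G were near the limit of detection. Of the 5, 3 had enough reads for edgeR's quasi-likelihood test between the groups. Of these, 0 passed at an adjusted p below 0.05, beside 8.29% of all tested genes. APOBEC3D and APOBEC3G were below the read filter and did not pass in the fit on all genes with a read. In such bulk RNA, fewer cells that express a gene and less RNA of it in each cell cannot be told apart.

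The libraries held between 26650854 and 37321956 reads counted on genes. TFAM mRNA itself, which checks the labels, was at 12.36, 10.99 and 11.2 FPKM (fragments scaled to transcript length and library depth) in the control libraries and at 10.64, 11.88 and 13.63 FPKM in those labelled TFAM-OE. The groups overlapped, and the log2 fold change of TFAM was 0.08 (95% interval -0.13 to 0.30, adjusted p = 0.623, edgeR quasi-likelihood test). The study's methods check the overexpression by a western blot of the FLAG tag, which is not analysed here. The mRNA values do not show it, so the group is written as the TFAM-OE-labelled libraries throughout. Epithelial keratins were abundant, with KRT7, KRT8 and KRT18 at control means of 1376, 713.9 and 494.8 FPKM, and 9 of 11 markers of A549 and lung epithelial cells were above 1 FPKM in at least 1 library. Their summed level was between 4908 and 4966 FPKM in the control and between 5071 and 5333 FPKM in the TFAM-OE-labelled libraries, and 0 of the 10 that were tested passed at 0.05 after adjustment by the quasi-likelihood test (3 at an unadjusted p below 0.05, 2 in DESeq2, in the exact test and without TFAM-OE replicate 1, and 1 without replicate 3 of either group). SFTPB, a surfactant gene of alveolar type II cells, had between 0 and 2 reads, and EPCAM, also on this list, had between 9 and 32 reads. CDH1 was between 0.61 and 1.48 FPKM. Of 14 leukocyte markers, 1 was above 1 FPKM in a library.

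The genes follow each other on the plus strand (GRCh38, GENCODE version 44). APOBEC3B (ENSG00000179750.15) is annotated at chr22:38982347-38992804, APOBEC3C (ENSG00000244509.3) at chr22:39014257-39020352, and APOBEC3D (ENSG00000243811.7) at chr22:39021113-39033277. APOBEC3F (ENSG00000128394.16) is at chr22:39040604-39055972 and APOBEC3G (ENSG00000239713.7) at chr22:39077067-39087743. APOBEC3A lies upstream of APOBEC3B, and APOBEC3H lies downstream of APOBEC3G. The distance between neighbours ranged from 760 bases, between APOBEC3C and APOBEC3D, to 21452 bases, between APOBEC3B and APOBEC3C. The MANE Select transcript, the reference transcript chosen for each gene, encodes 190 amino acids for APOBEC3C, which carries a lone deaminase domain. APOBEC3B, APOBEC3D, APOBEC3F and APOBEC3G carry a pair of such domains and encode 382, 386, 373 and 384 amino acids.

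Because the members are paralogs, reads from one could align to another. Every stretch of 150 bases, the length of a read, was taken from the longest protein-coding transcript of each member and looked up in the transcripts of the other APOBEC3 genes. For APOBEC3C, 0% of the 2495 stretches occurred identically in another member, and 1.96% occurred with at most 4 mismatches, the number the aligner allowed. For APOBEC3F the shares were 2.99% and 10.7%, for APOBEC3D 5.2% and 12.09%, and for APOBEC3G 4.03% and 13.85%. APOBEC3B shared most, with 5.72% identical and 24.78% within 4 mismatches, and within 4 mismatches it shared most with APOBEC3A, at 12.8% of its stretches. Identical stretches were shared with APOBEC3D (2.95%) and APOBEC3A (2.77%). Only uniquely mapped reads were counted by the authors, so a read from an identical stretch could be missing from both genes.

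**Figure D1:**
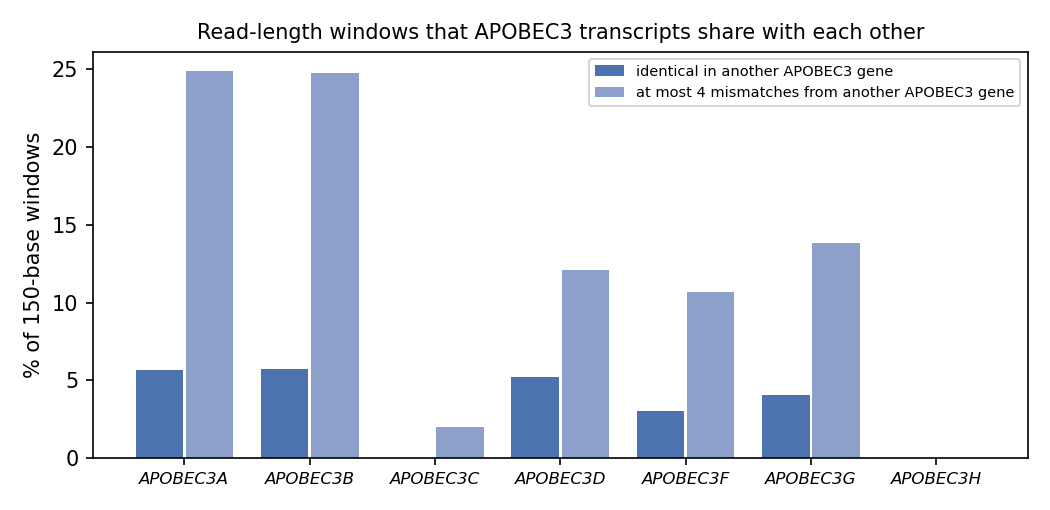
Bars give, for each of the 7 APOBEC3 genes, the percentage of 150-base stretches of its longest protein-coding transcript that were found in another APOBEC3 gene, identically (dark) or with at most 4 mismatches (light). APOBEC3A and APOBEC3B share the most, at 24.91% and 24.78% within 4 mismatches, and APOBEC3C shares 1.96%.

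APOBEC3D needs a further remark. Of its stretches, 83.35% occurred identically in transcripts of genes outside the APOBEC3 family. This share was 0% for APOBEC3C and APOBEC3G, 1.36% for APOBEC3B and 1.68% for APOBEC3F. A readthrough gene, annotated at chr22:39014363-39033276 on the plus strand, runs from APOBEC3C into APOBEC3D. How much of the share of APOBEC3D lies in this readthrough gene was not counted. That gene has no row among those used here, and the annotation with which the authors counted is not given in the sources used here. Whether reads from readthrough RNA were counted for APOBEC3D or for APOBEC3C was not tested.

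APOBEC3C, APOBEC3B and APOBEC3F followed each other in this order in every library. APOBEC3C was highest, at 19.04, 19.75 and 20.9 FPKM in the control libraries and 21.41, 22.13 and 19.84 FPKM in the TFAM-OE-labelled libraries. Its mean over the 6 libraries exceeded that of 90.8% of the 29656 genes with an FPKM value. APOBEC3B followed at 9.77, 10.4 and 10.37 FPKM in the control and 10.18, 11.49 and 11.31 FPKM in the TFAM-OE-labelled libraries, and stood above 84.7% of genes. Within a library, APOBEC3C was between 1.75 and 2.10 times as high as APOBEC3B. The ranges of these genes did not overlap in either group.

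APOBEC3F was at 1.78, 1.83 and 1.85 FPKM in the control libraries and at 1.57, 1.41 and 1.04 FPKM in the TFAM-OE-labelled libraries. It exceeded 64.1% of genes and was between 5.49 and 10.9 times lower than APOBEC3B. APOBEC3D was at 0.04, 0.06 and 0.13 FPKM in the control and at 0.02, 0.04 and 0.08 FPKM in the TFAM-OE-labelled libraries. APOBEC3G was listed at 0.07, 0 and 0 FPKM in the control and at 0.1, 0.01 and 0.02 FPKM in the TFAM-OE-labelled libraries. The ranges of APOBEC3D and APOBEC3G overlapped in both groups, so no order between them could be given. Of the genes in the cluster that are not members, APOBEC3A was close to APOBEC3F, at a mean of 1.86 FPKM ± 0.0493 (SD, n = 3) in the control, and APOBEC3H was close to APOBEC3D and APOBEC3G, at 0.0433 FPKM ± 0.0379.

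**Figure D2:**
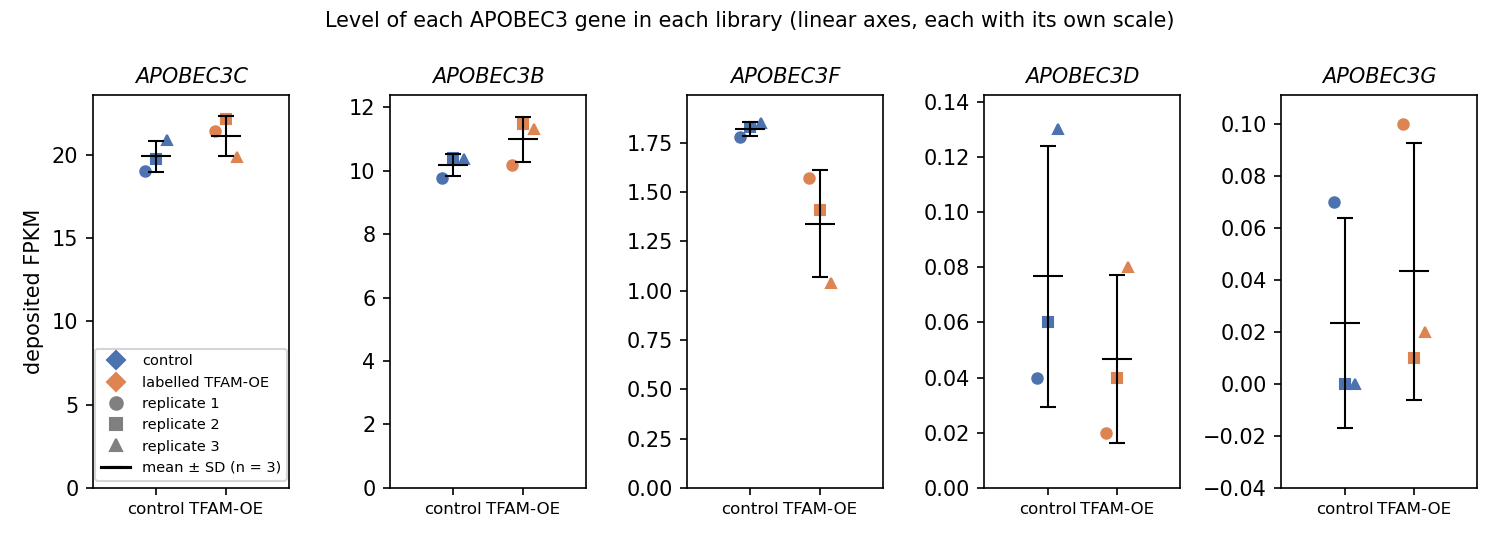
Points give the deposited FPKM of each APOBEC3 gene in each of the 6 libraries, blue for control and orange for the TFAM-OE-labelled libraries, with the mean and SD of 3 libraries in black, on linear axes that differ between genes. APOBEC3F is the gene whose groups do not overlap, with 1.78 to 1.85 FPKM in the control and 1.04 to 1.57 FPKM in the TFAM-OE-labelled libraries. In CPM, the groups do not overlap for 31.7% of all tested genes.

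APOBEC3D and APOBEC3G are the 2 members with few reads here. APOBEC3D had 4, 5 and 15 reads in the control libraries, against 2, 4 and 7 in the TFAM-OE-labelled ones. APOBEC3G had 5, 0 and 0 reads in the control libraries, against 7, 1 and 1 in the TFAM-OE-labelled ones. Most of the APOBEC3G reads came from replicate 1 of each group. A library with 0 reads allows up to 3 reads, or 0.113 RPM (reads scaled to the library total) in control replicate 2 and 0.0804 RPM in control replicate 3. Most leukocyte markers in the same libraries were as scarce, with 0 or 1 read for PTPRC, CD3G and CD4 in each library, although CD8A had 20 to 34 reads and CD79A had 8 to 26. CD68, a lysosomal protein of macrophages that other cells also make, fell from between 98 and 113 reads to between 28 and 63 reads (log2 fold change -1.21, adjusted p = 0.0152, edgeR). However, CD68 did not pass without control replicate 1 or 2, or in either limma-trend fit on FPKM. The summed level of the leukocyte list was between 1.97 and 2.34 FPKM in the control and between 0.88 and 1.35 FPKM in the TFAM-OE-labelled libraries. CD68 made up most of the control sum, with means of 1.48 FPKM in the control and 0.617 FPKM in the TFAM-OE-labelled libraries. CD8A and CD79A, the other tested markers, had adjusted p-values of 0.421 and 0.758 (edgeR). The part of the leukocyte list in the values of APOBEC3D and APOBEC3G was not tested.

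The question of the design is whether gene expression differed after transfection of the TFAM plasmid. Genes with an adjusted p below 0.05 and a difference of at least 2-fold were called, and by this rule 2.51% of the 16555 genes that passed the read filter were called. Of the 5 members, 3 passed the filter (APOBEC3B, APOBEC3C and APOBEC3F) and 0 were called. At an adjusted p below 0.05 alone, 8.29% of all tested genes and 0 members passed, and at an unadjusted p below 0.05 also 0 members passed in edgeR's quasi-likelihood test. Of the other tools, DESeq2, edgeR's exact test and limma-voom also called 0 members. At an unadjusted p below 0.05, APOBEC3F passed in 6 of 17 alternatives and APOBEC3G in 1, without control replicate 1.

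APOBEC3B had 707, 622 and 864 control reads, against 768, 951 and 724 in the TFAM-OE-labelled libraries. After scaling, these were 21.1, 23.2 and 23.6 CPM (counts scaled to library size) against 24.1, 26.2 and 24.1 CPM. The lowest TFAM-OE-labelled library was just above the highest control on this scale, whereas the FPKM of the groups overlapped. Among all tested genes, 31.7% had groups that did not overlap in CPM, in either direction. The log2 fold change of APOBEC3B was 0.13 ± 0.11 (SE, 95% interval -0.11 to 0.37, adjusted p = 0.475, edgeR). The level in the TFAM-OE-labelled libraries was between 0.928 and 1.30 times that of the control by this interval.

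APOBEC3C, a broadly expressed enzyme with weak activity against HIV, had 1756 to 2587 control reads, against 1888 to 2723 in the TFAM-OE-labelled libraries. It was at 61.0, 65.6 and 70.6 CPM against 75.3, 74.9 and 62.9 CPM, and replicate 3 of the TFAM-OE-labelled libraries fell within the control range. The log2 fold change was 0.11 ± 0.11 (SE, 95% interval -0.13 to 0.35, adjusted p = 0.557, edgeR). The interval, between 0.914 and 1.28 times the control, does not reach 2-fold in either direction, and neither do those of APOBEC3B and APOBEC3F. The spread between libraries was 7.30% of the mean in the control and 9.92% in the TFAM-OE-labelled libraries, against about 2.1% from counting error alone.

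APOBEC3F showed the largest difference among the members with enough reads for the test. It had 206, 175 and 247 control reads, against 190, 187 and 107 in the TFAM-OE-labelled libraries, which correspond to 6.13, 6.54 and 6.74 CPM against 5.96, 5.15 and 3.57 CPM. All 3 TFAM-OE-labelled libraries were below all 3 controls, by a small margin for replicate 1 and by a wide one for replicate 3. Groups that did not overlap in CPM, in either direction, were found for 31.7% of all tested genes. The log2 fold change was -0.40 ± 0.19 (SE, 95% interval -0.82 to 0.02, unadjusted p = 0.0600, adjusted p = 0.217, edgeR), so the gene did not pass the test. The level in the TFAM-OE-labelled libraries was between 0.565 and 1.01 times that of the control by this interval. The spread between libraries was 4.77% of the mean in the control, under the counting error of 6.91%, and 24.9% in the TFAM-OE-labelled libraries. Without TFAM-OE replicate 3 the log2 fold change of APOBEC3F was -0.21 (adjusted p = 0.360), and without TFAM-OE replicate 1 it was -0.56 (adjusted p = 0.0727). Its unadjusted p was 0.0312 in the fit on all genes with a read, 0.0348 with scaling by library size alone, 0.0478 in limma-voom, 0.0401 and 0.0478 in the FPKM fits and 0.00928 without TFAM-OE replicate 1. Adjusted p-values of APOBEC3F over 17 alternatives ranged from 0.0727 to 0.408.

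APOBEC3D and APOBEC3G did not pass the read filter, and their values come from the fit on all 29845 genes with a read. The log2 fold change of APOBEC3D was -0.85 ± 0.66 (SE, 95% interval -2.13 to 0.44, adjusted p = 0.563, edgeR). That of APOBEC3G was 0.81 ± 1.08 (SE, 95% interval -1.30 to 2.92, adjusted p = 0.692, edgeR). Without TFAM-OE replicate 1 the sign of APOBEC3G turned (-0.685), and without control replicate 1, which holds all 5 of its control reads, the estimate was 4.64. Summed over libraries, APOBEC3D had 24 reads in the control and 13 in the TFAM-OE-labelled libraries, a ratio of 0.526 after scaling to library totals (exact 95% interval 0.246 to 1.08, counting error only). APOBEC3G had 5 and 9 reads, a ratio of 1.75 (0.526 to 6.64). All of these intervals include no change, so the differences could not be told from none at this depth. Both intervals of APOBEC3D also include a 2-fold fall, and both of APOBEC3G include a 2-fold rise.

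**Figure D3:**
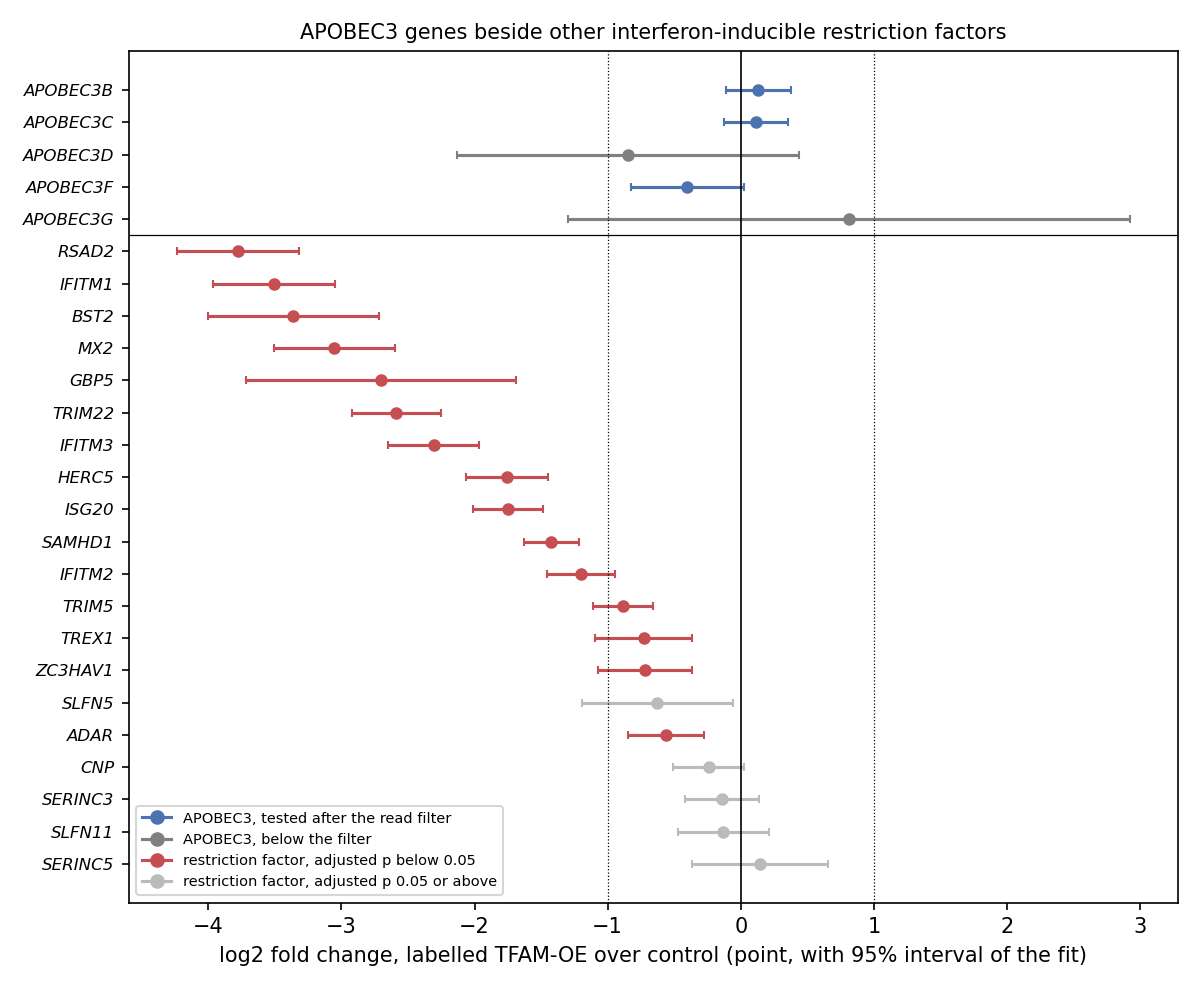
Points give the log2 fold change of the TFAM-OE-labelled libraries over the control with the 95% interval of the edgeR fit. The 5 APOBEC3 genes are above the line (grey where the gene was below the read filter). Under it are 20 other restriction factors, most of which interferon can induce. Dotted lines mark 2-fold. APOBEC3B, APOBEC3C and APOBEC3F lie between -0.40 and 0.13, and 15 of the 20 restriction factors lie lower at an adjusted p below 0.05, down to -3.78.

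Ratios between members within a library do not depend on scaling between libraries. The ratio of APOBEC3F to APOBEC3C was 0.0935, 0.0927 and 0.0885 in the control libraries and 0.0733, 0.0637 and 0.0524 in the TFAM-OE-labelled libraries. The ratio of APOBEC3F to APOBEC3B was 0.182, 0.176 and 0.178 against 0.154, 0.123 and 0.0920. For both ratios the groups did not overlap, with log2 differences of -0.55 and -0.57. The ratio of APOBEC3B to APOBEC3C was 0.513, 0.527 and 0.496 in the control and 0.475, 0.519 and 0.570 in the TFAM-OE-labelled libraries, a log2 difference of 0.02, and the groups overlapped. Of the 10 pairs of members, 6 could be compared, since APOBEC3G was listed at 0 in 2 control libraries. The exact two-sided permutation test gave p = 0.1 for both ratios of APOBEC3F, the smallest value that 3 libraries against 3 allow (0.3 after adjustment over the 6 pairs). For the other 4 pairs it gave p from 0.4 to 0.8.

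**Figure D4:**
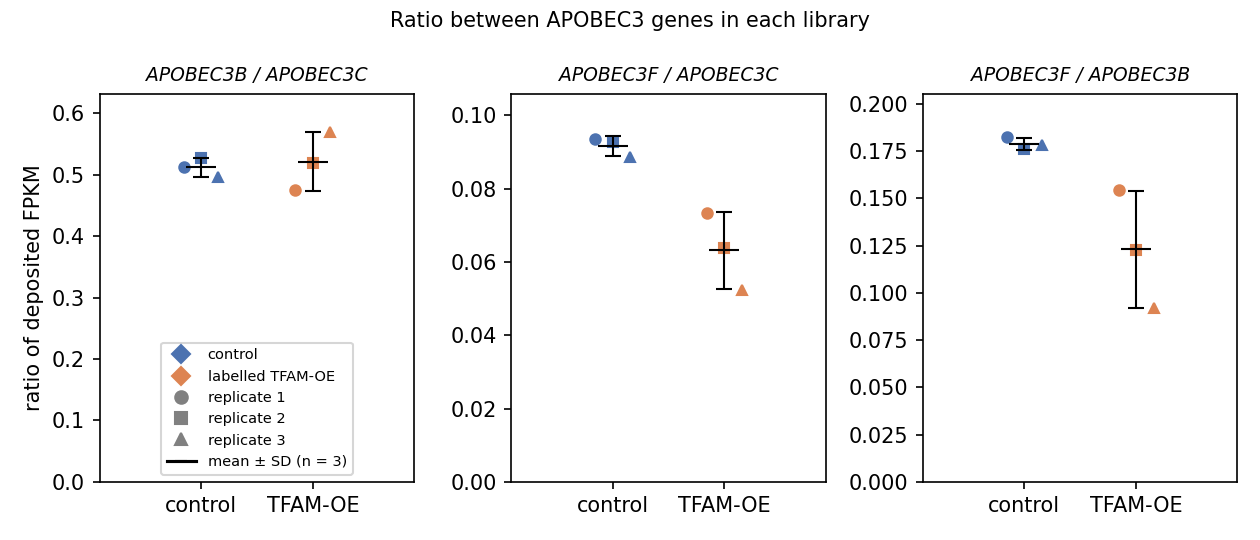
Points give the ratio of the deposited FPKM of 2 APOBEC3 genes in each library, blue for control and orange for the TFAM-OE-labelled libraries, with the mean and SD of 3 libraries in black and axes from 0. APOBEC3F relative to APOBEC3C is 0.0885 to 0.0935 in the control and 0.0524 to 0.0733 in the TFAM-OE-labelled libraries, whereas APOBEC3B relative to APOBEC3C overlaps.

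The 5 members together were at 30.7, 32.04 and 33.25 FPKM in the control libraries and at 33.28, 35.08 and 32.29 FPKM in the TFAM-OE-labelled libraries. The means were 32.0 ± 1.28 and 33.6 ± 1.41 FPKM (SD, n = 3 each), and the groups overlapped (exact permutation test, two-sided, p = 0.2). APOBEC3C made up 62.2% ± 0.622 of the sum in the control and 62.9% ± 1.45 in the TFAM-OE-labelled libraries, and APOBEC3B made up 31.8% ± 0.636 and 32.8% ± 2.22. APOBEC3F made up 5.80%, 5.71% and 5.56% in the control libraries and 4.72%, 4.02% and 3.22% in the TFAM-OE-labelled libraries. The groups did not overlap for APOBEC3F alone (exact permutation p = 0.1, adjusted over 5 shares 0.5). APOBEC3D and APOBEC3G each stayed under 0.4% of the sum.

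Other antiviral genes fell in the same libraries. Restriction factors are host proteins that block steps of the retroviral life cycle, and 20 of them, most of which interferon can induce, were compared. Of these, 15 fell and 0 rose, beside 8.29% of all tested genes that passed in either direction. The median log2 fold change of the list was -1.31, beside -0.01 for all tested genes. RSAD2 (viperin), which makes a chain-terminating nucleotide, was at 30.6, 22.8 and 23.2 CPM in the control and at 1.91, 2.26 and 1.37 CPM in the TFAM-OE-labelled libraries (log2 fold change -3.78, adjusted p = 1.76e-05). IFITM1, which blocks virus entry at the membrane, had a log2 fold change of -3.51, and TRIM22, a ubiquitin ligase that restricts HIV transcription, had one of -2.59. SAMHD1, which removes the nucleotides needed for reverse transcription, fell from between 97.1 and 107 CPM to between 38.3 and 39.0 CPM (log2 fold change -1.42, adjusted p = 3.08e-05). The groups of these 4 genes did not overlap, and over the alternatives between 11 and 16 genes of the list passed. Whether the members differed from this list was not tested.

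Genes of the interferon signal that acts on such factors were compared next. Of 15 genes from the interferons to the transcription factor ISGF3, 14 were tested, 8 fell and 0 rose (median log2 fold change -0.81). Of all tested genes, 8.29% passed in either direction. Over the alternatives, between 5 genes of this list (with the replicate block) and 10 (without TFAM-OE replicate 3) passed. IFNB1, the gene of interferon beta, had 174, 121 and 132 control reads, against 12, 5 and 5 in the TFAM-OE-labelled libraries (log2 fold change -4.28, adjusted p = 7.22e-05). IFNL1, an interferon of epithelial cells, had a log2 fold change of -3.87. USP18, an inhibitor of the receptor that interferon itself induces, had a log2 fold change of -1.76. The receptor genes IFNAR1 and IFNAR2, named here after their values were seen, had adjusted p-values of 0.324 and 0.506. IRF9, a subunit of ISGF3, had between 0 and 5 reads and was not tested.

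Genes known to act on the APOBEC3B promoter are mainly cell-cycle and NF-kB factors. Of 17, 3 rose and 0 fell, beside 8.29% of all tested genes that passed in either direction. The median log2 fold change of the list was -0.04. E2F1, which drives genes of S phase, was at 38.3, 47.9 and 53.2 CPM in the control and at 79.8, 78.1 and 69.5 CPM in the TFAM-OE-labelled libraries (log2 fold change 0.71, adjusted p = 0.0120). MYBL2 (log2 fold change 0.56, adjusted p = 0.0326) and FOXM1 (0.48, adjusted p = 0.0296) are activators of mitotic genes. All 3 stayed below the 2-fold limit, and all 3 had groups that did not overlap, as for 31.7% of all tested genes. Without control replicate 2 or TFAM-OE replicate 2, 0 genes of this list passed, without control replicate 1 there was 1, and without TFAM-OE replicate 1 or 3 there were 5. With the replicate block 0 passed, in each FPKM fit 1, and with scaling by library size alone 4.

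Uracil made by deamination is excised from DNA by glycosylases and replaced through base excision repair. Of 21 genes of uracil repair and dUTP removal, 2 rose and 0 fell, with a median log2 fold change of 0.21, and this share is near the 8.29% of all tested genes that passed. UNG, the main uracil glycosylase, was at 90.5, 100 and 113 CPM in the control and at 141, 139 and 132 CPM in the TFAM-OE-labelled libraries (log2 fold change 0.44, adjusted p = 0.0313). LIG1, the ligase that seals the repaired strand, was at 40.3, 45.8 and 51.1 CPM against 66.6, 73.9 and 75.6 CPM (log2 fold change 0.65, adjusted p = 0.00925). The groups did not overlap for either gene, as for 31.7% of all tested genes. Without control replicate 2 or TFAM-OE replicate 2, and in the FPKM fits, 0 genes of this list passed, against 1 without control replicate 1 and 8 without TFAM-OE replicate 3.

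For the proteins through which APOBEC3 enzymes are destroyed or stored, the RNA of their genes did not pass the quasi-likelihood test. Vif recruits a ubiquitin ligase of cullin 5 and elongins against APOBEC3, and 0 of its 9 genes passed (1 at an unadjusted p below 0.05, 0 in DESeq2 and the exact test), with log2 fold changes between -0.33 and 0.21. Of 12 genes of the ribonucleoprotein and P-body proteins with which APOBEC3 enzymes associate in the cytoplasm, 0 passed (3 at an unadjusted p below 0.05, 1 in DESeq2 and the exact test, 2 without TFAM-OE replicate 3), with log2 fold changes between -0.69 and 0.22. Among 15 other cytidine and adenosine deaminases, 12 were tested, and ADAR, which edits adenosine in RNA and also belongs to the restriction factor list, fell (log2 fold change -0.56, adjusted p = 0.0279). AMPD2 (log2 fold change 0.50) and ADA (0.51), which deaminate AMP and adenosine, rose. These 3 of the 12 passed, beside 8.29% of all tested genes that passed in either direction. In the FPKM fits, with the replicate block, and without control replicate 1 or 2 or TFAM-OE replicate 2, 0 genes of this list passed.

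Of the family outside of the 5 members, APOBEC3A alone had enough reads for the test. It had 130, 113 and 156 control reads, against 118, 161 and 132 in the TFAM-OE-labelled libraries (log2 fold change 0.02, 95% interval -0.32 to 0.36, adjusted p = 0.947, edgeR). APOBEC3H had between 0 and 6 reads. APOBEC3B-AS1, a transcript annotated opposite the end of APOBEC3B, had 15 to 27 reads, against at least 622 for APOBEC3B.

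The genes around the cluster were compared as a background to the members. Within 500 kb on either side, 36 other annotated genes were in the count table and 26 were tested, of which 1 fell and 0 rose, beside 8.29% of all tested genes that passed, and 9 had groups that did not overlap, beside 31.7%. The gene that fell was GTPBP1, a GTP-binding protein (log2 fold change -0.56, adjusted p = 0.0206), with 39.1, 47.4 and 47.5 CPM in the control and 32.7, 30.2 and 28.1 CPM in the TFAM-OE-labelled libraries. The nearest tested genes on each side, CBX6 and CBX7, encode Polycomb chromatin proteins. CBX6 had a log2 fold change of -0.30 (adjusted p = 0.0726) and CBX7 one of 0.07 (adjusted p = 0.774). The median over the 26 genes was 0.02. The count was 0 without control replicate 2 or 3 or TFAM-OE replicate 2, 2 without TFAM-OE replicate 1, and 6 without TFAM-OE replicate 3. It was 0 with the replicate block, 2 in DESeq2 and 3 in edgeR's exact test.

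**Figure D5:**
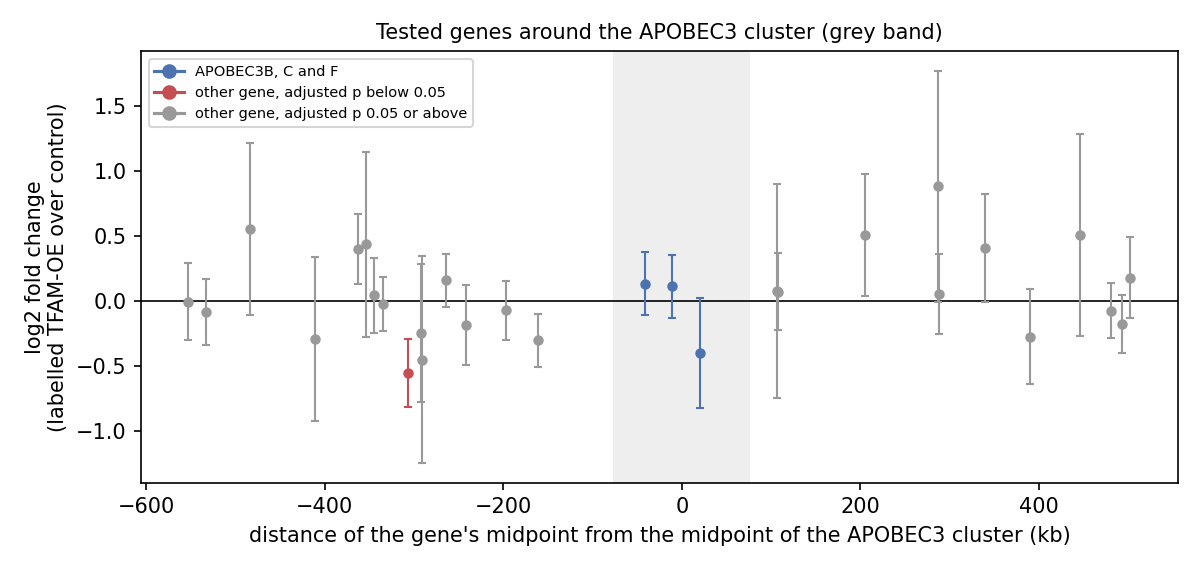
Points give the log2 fold change of the TFAM-OE-labelled libraries over the control with its 95% interval for the tested genes within 500 kb of the APOBEC3 cluster, against the distance of each gene's midpoint from the midpoint of the cluster in kb. APOBEC3B, APOBEC3C and APOBEC3F (blue) lie in the grey band that marks the cluster, and GTPBP1 (red) is the 1 neighbour with an adjusted p below 0.05.

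The profile over the 6 libraries was compared with that of about 13190 genes with a mean of at least 50 reads, by the root mean square difference of centred log2 CPM. The profile of APOBEC3F was most like those of PCGF1, SRA1 and ZP3, with differences of 0.015, 0.0302 and 0.0385. That of APOBEC3C was most like PUS1, LONP1 and RDH13 (0.0179 to 0.0243), and that of APOBEC3B most like APBB3 and FOXP4 (0.0231 and 0.0245). For APOBEC3D (ZNF805, ZNF717 and KANSL1L) and APOBEC3G (WFDC21P, ZNF365 and P2RX6) the nearest genes were 0.34 to 0.55 away, so no gene was close to these sparse profiles. With 6 libraries and so many genes, near profiles are found for most genes, and these names are a description.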

How the data were processed

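RNA of A549 cells was measured in 3 control and 3 TFAM-OE-labelled libraries. The authors trimmed reads, dropped those under 16 nt, mapped what remained with TopHat2 (GRCh38, at most 4 mismatches), and deposited raw counts of uniquely mapped reads per gene and FPKM values with 2 decimals. Which program and annotation were used for counting, and whether strand was used, is not given in the sources used here. Reads carry no molecular identifiers, so floors and exact intervals cover counting error only.

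Counts were compared with edgeR's quasi-likelihood test (edgeR 4.0.16, R 4.3.3), two-sided, after filterByExpr and TMM scaling, with Benjamini-Hochberg adjustment over the 16555 genes kept, and this step was checked on simulated data. CPM values are TMM-scaled. Members below the filter were read from the fit on all genes with a read. Sums, shares and ratios of FPKM were compared with exact permutation tests (scipy 1.17.1). As alternatives, edgeR's exact test, DESeq2 (1.42.0), limma-trend and limma-voom (limma 3.58.1), other scalings and filters, a replicate block and leaving out each library were run.

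The members and lists were chosen with earlier results of these data known. Named are the members, TFAM, in each list at most 4 genes per direction past an adjusted p of 0.05 (smallest p first), the 3 genes nearest in profile to each member and the nearest tested gene on each side of the cluster, and markers with their lists. A few of these are not reported here. Of the listed genes, 4 were matched by gene ID to an older symbol. Protein identity and promoter motifs of the members were not analysed here.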

Additional observations from a re-analysis of the deposited data

How the results depend on the processing

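Under 17 alternatives, APOBEC3B, APOBEC3C, APOBEC3D and APOBEC3F kept their direction and 0 members were called, also at an adjusted p alone. For APOBEC3D and APOBEC3G, the alternatives with other read filters repeat the fit of the main value, so these could not differ. The log2 fold change of APOBEC3G, which rests on 14 reads, reversed without TFAM-OE replicate 1 (-0.685), and DESeq2 gave no adjusted p for APOBEC3D and APOBEC3G. With a library left out, log2 fold changes ranged from 0.09 to 0.17 for APOBEC3B, from 0.07 to 0.20 for APOBEC3C, from -1.43 to -0.16 for APOBEC3D, from -0.56 to -0.21 for APOBEC3F and from -0.685 to 4.64 for APOBEC3G. The difference in share of the summed FPKM reversed for APOBEC3G without TFAM-OE replicate 1 (-0.0308 percentage points, range to 0.130) and for APOBEC3B without TFAM-OE replicate 3 (-0.152, range to 2.07). The difference in summed FPKM, 1.55, ranged from 0.788 without TFAM-OE replicate 2 and 0.905 without control replicate 1 to 2.18, and that in the share of APOBEC3C, 0.781 percentage points, from 0.0910 without TFAM-OE replicate 1 to 1.54 without TFAM-OE replicate 3.

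Over all genes, 416 were called. The count was 657 with all genes that had a read, 213 and 102 with limma-trend on log2(FPKM + 0.1) and log2(FPKM + 1), 1372 at an adjusted p alone, and 204 to 561 with a library left out (204 without control replicate 1, 212 without control replicate 2 and 246 without TFAM-OE replicate 2). The genes of the lists and the neighbourhood past an adjusted p of 0.05 were 31 in all, 20 in both FPKM fits, and 18 to 49 with a library left out (18 without control replicate 2 or TFAM-OE replicate 2, 49 without TFAM-OE replicate 3). The cause of these shifts was not tested. Counts for single lists and markers were within 1.5 times in 140 of 187 comparisons, and were lower in 27 and higher in 20 of the others.

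The correlations of same-numbered deviations from the group means were -0.225, 0.008 and -0.266. Those between differently numbered libraries ranged from -0.039 to 0.252. With deviations around means of 3 libraries, these values cannot decide whether replicate numbers pair the libraries. With the replicate block, 255 genes were called, 18 list genes passed, 0 members were called, and the summed FPKM differed by 1.55 (exact sign-flip permutation p = 0.5). The few reads of APOBEC3D and APOBEC3G limit what their intervals exclude.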
